A study of Homo sapiens with 14 samples.

Results

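The 10 genes of serine synthesis and of the amino acid response described here, read from the RNA-seq data of 2 prostate cancer cell lines, were PHGDH, PSAT1, PSPH, SHMT2, ASNS, CHAC1, TRIB3, SLC7A11, SLC7A5 and SLC3A2. They were picked by symbol, and all 10 were present in both tables, among 44591 genes for LNCaP and 24199 features for DU145. LNCaP is an established, androgen-sensitive prostate cancer line. Parental LNCaP cells, labelled WT, were compared with LNCaP-ENZ cells, which had been kept in 20 µM enzalutamide, an antiandrogen drug, and are labelled enzalutamide resistant; 30 days of exposure are given by the series text. DU145 is an established, androgen-insensitive prostate cancer line. DU145 shPAX6 cells, which carry a lentiviral short hairpin against PAX6, were compared with DU145 shCON cells, which carry a non-target hairpin and are labelled WT. Both DU145 groups had been infected and selected as stable lines, and the labels do not say which of the PAX6 hairpins was used or whether the libraries came from separate cultures. There were 3 libraries in each DU145 group and 1 in each LNCaP group. The methods of the study give 3 replicates for each cell line, and whether a LNCaP column holds 1 library or several pooled is not stated. Thus the p-values for DU145 measure only the spread between these libraries, which may be technical, and the LNCaP differences have no replicate check. The remaining 6 of the 14 samples are chromatin accessibility libraries and were not used here.

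PHGDH, PSAT1 and PSPH catalyse, in this order, the steps that turn the glycolytic intermediate 3-phosphoglycerate into serine, and SHMT2 moves a carbon from serine to folate in the mitochondrion. When amino acids are scarce or the endoplasmic reticulum is under stress, kinases phosphorylate the initiation factor eIF2alpha, general translation falls, and the transcription factor ATF4 is translated more. ATF4 then raises genes that make, import and spare amino acids, the 10 genes among them, by binding with a C/EBP partner to composite elements in their promoters.

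The sequences before the starts of these genes were read for the core of that composite element, the letters TGATGNAA on either strand, where N is any base. RefSeq promoter windows of GRCh38.p14, from 250 bases before to 50 bases after an annotated start, were at hand for 7 of the 10 genes in 12 windows (PHGDH, PSAT1, ASNS, CHAC1, TRIB3, SLC7A5 and SLC3A2). PSPH, SHMT2 and SLC7A11 had no entry. The letters stood in 3 of the 12 windows, 1 each of ASNS, CHAC1 and SLC3A2, and in 3.62% of all 35116 windows. They are shown because they name the element that the group is known for. Each sequence reads 5′ to 3′ along the strand of its gene, with the match in capitals. The ASNS stretch is chr7:97872409-97872658 on the minus strand, with the first letter of the match at -68 from the start. The CHAC1 stretch is chr15:40953221-40953470 on the plus strand, with the match, on the opposite strand, from -209. For SLC3A2, 24 bases are given, chr11:62881725-62881748 on the plus strand, since the match, also on the opposite strand, lies after the start, from base 38.
ASNS: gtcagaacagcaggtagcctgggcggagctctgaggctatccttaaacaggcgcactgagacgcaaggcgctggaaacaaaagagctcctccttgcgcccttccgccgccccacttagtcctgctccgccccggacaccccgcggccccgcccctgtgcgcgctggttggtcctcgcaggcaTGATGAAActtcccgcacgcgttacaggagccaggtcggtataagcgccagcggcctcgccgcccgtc
CHAC1: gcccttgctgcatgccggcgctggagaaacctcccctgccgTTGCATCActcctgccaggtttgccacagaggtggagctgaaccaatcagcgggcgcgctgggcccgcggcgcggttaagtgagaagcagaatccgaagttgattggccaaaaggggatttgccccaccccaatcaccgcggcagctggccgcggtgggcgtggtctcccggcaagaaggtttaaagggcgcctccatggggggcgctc
SLC3A2: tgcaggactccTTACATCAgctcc
A match is a description of the letters, and its absence from a window says nothing of the factor.

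The libraries set the frame for every value below. The parental and LNCaP-ENZ libraries held 20468001 and 17945722 counts, of which 4 small non-coding RNAs (RN7SK, RPPH1, RN7SL1 and RMRP) took 17.4% and 18.3%. The DU145 table names no unit and holds no counts; its values were treated as FPKM, fragments scaled to transcript length and library size, and their depth is unknown. The libraries of DU145 shPAX6 stood apart from each other: relative to the mean of shCON, the median gene was at -0.44 (log2) in shPAX6 library 1, at 0.05 in library 2 and at -0.14 in library 3. In these libraries the targeted gene, PAX6, was 0.0153, 0.274 and 0.0778 FPKM, against 0.839, 1.23 and 1.57 FPKM in shCON, a log2 fold change of -2.69 ± 0.49 (SE; adjusted p = 0.054 in limma). KLK3, the gene of prostate-specific antigen, had 1817 and 1186 counts in parental and LNCaP-ENZ cells. It was at or near 0 in all DU145 libraries, where the luminal keratins KRT8 and KRT18 were at 492 FPKM or more. Fibroblast, leukocyte, endothelial and neuroendocrine markers summed to at most 4.25 TPM (transcript abundance scaled to length and library size) in either LNCaP library and at most 2.07 FPKM per list in any DU145 library. In bulk samples, fewer cells that express a gene and less RNA per cell cannot be told apart.

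In control DU145 cells PSAT1, SHMT2 and PHGDH were among the highest expressed of these genes, PSPH was far below them, and the cystine transporter subunit SLC7A11 was the lowest. On the FPKM scale, which is per length, mean levels in shCON ran from PSAT1 (294 ± 13 FPKM, SD, n = 3) through SHMT2 (230 ± 14), SLC3A2 (197 ± 5.4), PHGDH (153 ± 5.2), SLC7A5 (136 ± 8.7), ASNS (124 ± 6.7), TRIB3 (45.6 ± 4.1), PSPH (42.6 ± 2.2) and CHAC1 (23.9 ± 1.8) to SLC7A11 (3.13 ± 0.65). Neighbours in this order had ranges that did not meet, except for SLC7A5 with ASNS and TRIB3 with PSPH. In shPAX6 the order was the same apart from SLC3A2, at 242 ± 36 FPKM, which stood above SHMT2, at 201 ± 15 FPKM. In parental LNCaP cells the order on the TPM scale, also per length, was SHMT2 (282), SLC7A5 (156), PHGDH (136), SLC3A2 (74.3), PSAT1 (56.0), ASNS (46.6), TRIB3 (22.7), PSPH (9.01), SLC7A11 (5.32) and CHAC1 (4.33). PSAT1 was thus 1.93 ± 0.14 times as high as PHGDH in DU145 shCON (FPKM, SD, n = 3), but 0.412 times as high in parental LNCaP (TPM, 1 library). The tables were normalised separately and no test was run across them, and the lines were grown in different media (RPMI-1640 for LNCaP, DMEM for DU145), so line and medium cannot be told apart.

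**Figure D1:**
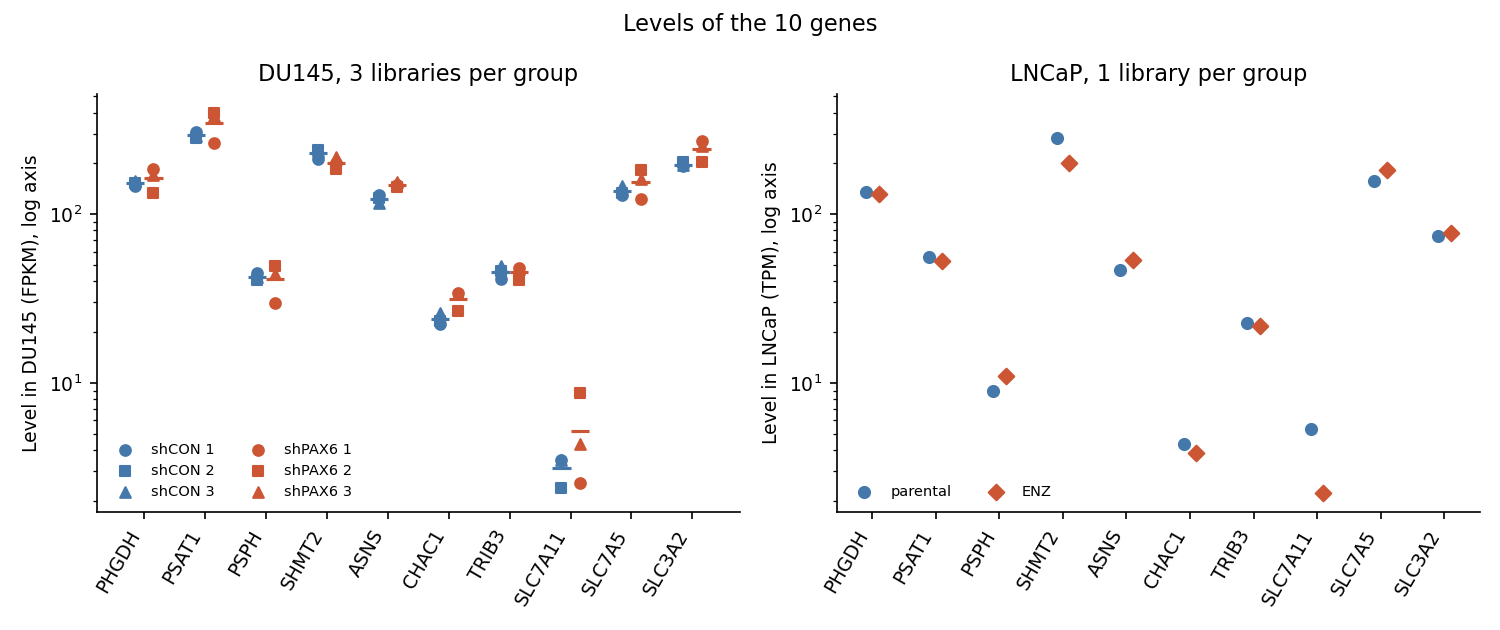
Levels of the 10 genes on log axes, per library, in DU145 (FPKM, left, circles, squares and triangles for libraries 1, 2 and 3, short lines at group means) and in LNCaP (TPM, right, 1 library per group). PSAT1 leads in DU145 and SHMT2 in LNCaP, and SLC7A11 spans 2.38 to 8.76 FPKM in DU145.

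The first question was whether knockdown of PAX6 in DU145 cells moved these genes. None of the 10 passed an adjusted p under 0.05 in limma (Benjamini-Hochberg over 13574 features), where 1.20% of all features passed, 0.177% as higher and 1.02% as lower in shPAX6. At an unadjusted p under 0.05 stood 2 of the 10, ASNS and CHAC1, beside 18.3% of all features. The same 2 genes were higher in every shPAX6 library than in any shCON library, a pattern that 6.70% of all features showed, and no gene of the 10 was lower without overlap, which 20.0% of features were. The log2 fold changes were above 0 for 7 genes and below 0 for 3, with a median of 0.20 beside -0.12 over all features. Both medians moved with the scaling: to 0.12 and 0.01 with quantile normalization and to 0.37 and 0.06 after median centring. After the GC correction described below they were 0.17 and -0.13. With 3 libraries against 3, the exact permutation test of a single gene cannot go below p = 0.10.

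Among the enzymes of serine synthesis, the libraries of shPAX6 spread more than those of shCON and lay on both sides of them. PHGDH, the oxidation of 3-phosphoglycerate and first step (GRCh37 chr1:120254419-120286849, plus strand), was 147, 153 and 158 FPKM in shCON libraries 1, 2 and 3 and 185, 133 and 171 FPKM in shPAX6 libraries 1, 2 and 3. Library 2 of shPAX6 was below all shCON libraries and the other two were above them. The log2 fold change was 0.08 ± 0.15 (SE; adjusted p = 0.83 in limma), with a 95% interval from -0.28 to 0.44, and -0.02 without shPAX6 library 1.

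PSAT1, the transamination step that follows (chr9:80911991-80945009, plus strand), showed the opposite order of libraries. Its levels were 308, 282 and 291 FPKM in shCON and 264, 400.1 and 382 FPKM in shPAX6. Library 1 of shPAX6 was the lowest of all 6 and libraries 2 and 3 the highest. The log2 fold change was 0.22 ± 0.18 (adjusted p = 0.58 in limma; 95% interval -0.20 to 0.65), and it was 0.41 without library 1 (adjusted p = 0.066).

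PSPH, the phosphatase that releases serine (chr7:56078744-56119268, minus strand), followed the order of PSAT1. It was 44.9, 40.6 and 42.3 FPKM in shCON and 29.8, 49.1 and 44.4 FPKM in shPAX6, so that library 1 was the lowest and library 2 the highest. Its log2 fold change was -0.08 ± 0.20 (adjusted p = 0.87 in limma; 95% interval -0.54 to 0.37) and turned to 0.13 without library 1.

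SHMT2 (chr12:57623356-57628718, plus strand) was 214, 239 and 236 FPKM in shCON and 201, 186 and 217 FPKM in shPAX6. The groups overlapped only through the first shCON and the third shPAX6 library. Its log2 fold change was -0.19 ± 0.13 (adjusted p = 0.49 in limma; 95% interval -0.49 to 0.11).

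The ratio of PSAT1 to PSPH, of the middle and last steps of serine synthesis, was set beside their levels. On the FPKM scale without correction it was 6.86, 6.95 and 6.87 in shCON and 8.86, 8.16 and 8.62 in shPAX6. All shPAX6 libraries lay above all shCON libraries, although the levels of both genes crossed between groups. The means were 6.89 ± 0.051 and 8.54 ± 0.36 (SD, n = 3 each; two-sided p = 0.10 by exact permutation, which is as low as 3 against 3 libraries can go, and 0.35 adjusted over the 7 ratios computed). The 2 genes differ in transcript GC content, 42.5% for PSAT1 and 49.8% for PSPH, and after the loess correction for GC described below the separation was lost: relative to the shCON mean, the log2 ratio was -0.08, 0.07 and 0.01 in shCON and 0.36, -0.05 and 0.20 in shPAX6. SHMT2 to PHGDH was also separate between groups, at 1.45, 1.56 and 1.499 in shCON and 1.09, 1.40 and 1.27 in shPAX6 (exact permutation p = 0.10, adjusted 0.35). That separation was lost as well after the GC correction, with shPAX6 library 2 at 0.08 above and libraries 1 and 3 at -0.51 and -0.16 below the shCON libraries, which lay between -0.02 and 0.04. The other 5 ratios overlapped without correction. In LNCaP, PSAT1 to PSPH was 6.22 in parental and 4.78 in LNCaP-ENZ cells (TPM, 1 library each). That ratio depends on PSPH, whose log2 ratio between these libraries was 0.38, but 0.08 with the counts of its pseudogene PSPHP1 added.

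**Figure D2:**
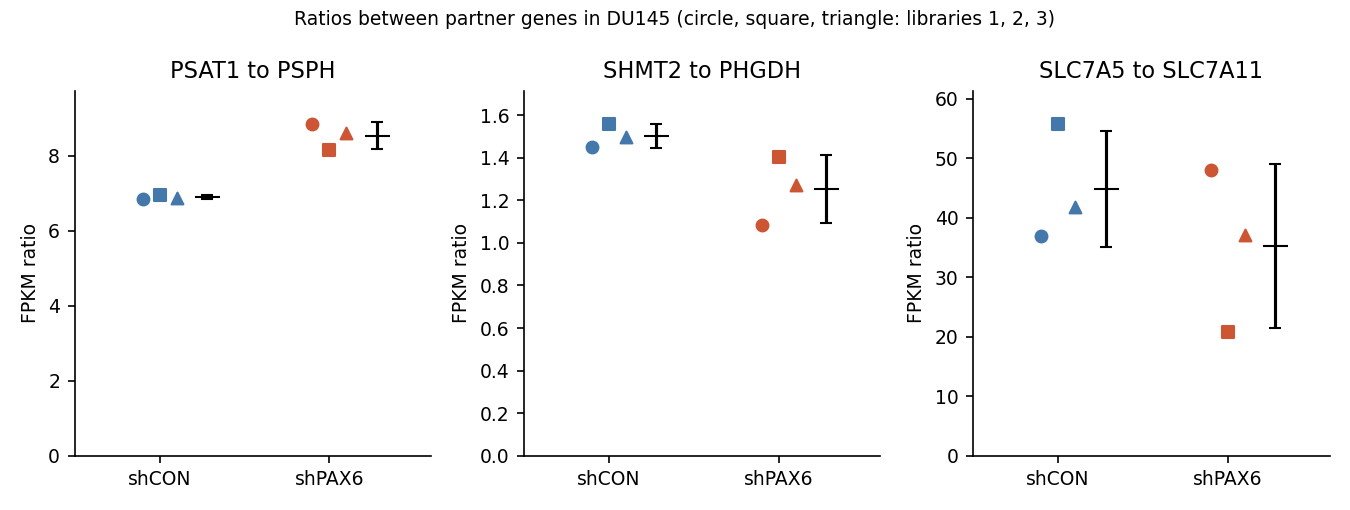
FPKM ratios between partner genes in each DU145 library, with the group mean and SD beside the points. PSAT1 to PSPH, here without GC correction, is near 6.9 in the shCON libraries and 8.16 to 8.86 in shPAX6, while SLC7A5 to SLC7A11 overlaps between the groups.

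ASNS and CHAC1 were the genes whose groups did not overlap in DU145 before the GC correction. ASNS makes asparagine from aspartate and glutamine (chr7:97481429-97501854, minus strand). It was 130.4, 124 and 117 FPKM in shCON and 148, 146 and 156 FPKM in shPAX6. Every shPAX6 library exceeded every shCON library. The log2 fold change was 0.27 ± 0.12 (unadjusted p = 0.048, adjusted p = 0.27 in limma; 95% interval 0.003 to 0.55).

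CHAC1 degrades glutathione and rises late in the response (chr15:41245347-41248717, plus strand). Its levels were 22.5, 23.4 and 25.9 FPKM in shCON and 34.2, 26.6 and 33.5 FPKM in shPAX6. Library 2 of shPAX6 stood just above the highest shCON library and the other two stood well above it. The log2 fold change was 0.39 ± 0.15 (unadjusted p = 0.033, adjusted p = 0.23 in limma; 95% interval 0.04 to 0.73). TRIB3, a pseudokinase that binds ATF4 and dampens it (chr20:361273-378203, plus strand), was 41.4, 45.9 and 49.6 FPKM in shCON and 47.9, 40.6 and 47.3 FPKM in shPAX6. The groups lay over each other, with a log2 fold change of -0.01 ± 0.13 (adjusted p = 0.98 in limma), and this sign turned under several settings.

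Among the transporter subunits, SLC3A2 differed in its order of shPAX6 libraries from the light chains SLC7A5 and SLC7A11, which shared theirs. SLC3A2, the heavy chain that carries both light chains to the membrane (chr11:62623484-62656355, plus strand), was 192, 202.6 and 196 FPKM in shCON and 271, 202.4 and 253 FPKM in shPAX6. Libraries 1 and 3 of shPAX6 were higher than any shCON library, and library 2 was within their range. The log2 fold change was 0.29 ± 0.15 (adjusted p = 0.36 in limma; 95% interval -0.06 to 0.63).

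SLC7A5, the light chain for large neutral amino acids such as leucine (chr16:87863622-87903105, minus strand), was 129.8, 133 and 146 FPKM in shCON and 123, 181 and 161 FPKM in shPAX6. Here library 1 was the lowest of all 6 and library 2 the highest. The log2 fold change was 0.17 ± 0.17 (adjusted p = 0.66 in limma; 95% interval -0.22 to 0.56). It was 0.33 without shPAX6 library 1 and 0.05 without library 2.

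SLC7A11, the light chain that imports cystine in exchange for glutamate (chr4:139085248-139163503, minus strand), was 3.51, 2.38 and 3.50 FPKM in shCON and 2.56, 8.76 and 4.33 FPKM in shPAX6. The mean of shPAX6 rested on library 2. Its log2 fold change, the largest of the 10, was also the least certain, at 0.56 ± 0.42 (adjusted p = 0.54 in limma; 95% interval -0.42 to 1.55). Without library 2 it was 0.11 and without library 1 it was 0.98.

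The shPAX6 libraries thus differed from each other in opposite directions for different members. PSAT1, PSPH, SLC7A5 and SLC7A11 were lowest in library 1 and highest in library 2, and PHGDH, CHAC1, TRIB3 and SLC3A2 were highest in library 1 and lowest in library 2, although after the GC correction below library 1 was the lowest for CHAC1 and TRIB3 and library 3 the highest for PSAT1. For SLC3A2 the deviations from the shCON mean were 0.46, 0.04 and 0.36 on the log2 scale, and for its partner SLC7A5 they were -0.15, 0.41 and 0.24. Before that correction, library 3 was never the lowest of the 3, and was the highest for ASNS and SHMT2. A limma fit with array weights, which gave library 3 a weight of 5.74 and libraries 1 and 2 weights of 0.16 and 0.27, called 5 of the 10 genes as higher (PSAT1, ASNS, CHAC1, SLC7A5 and SLC3A2). That fit called 11.4% of all features as higher.

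**Figure D3:**
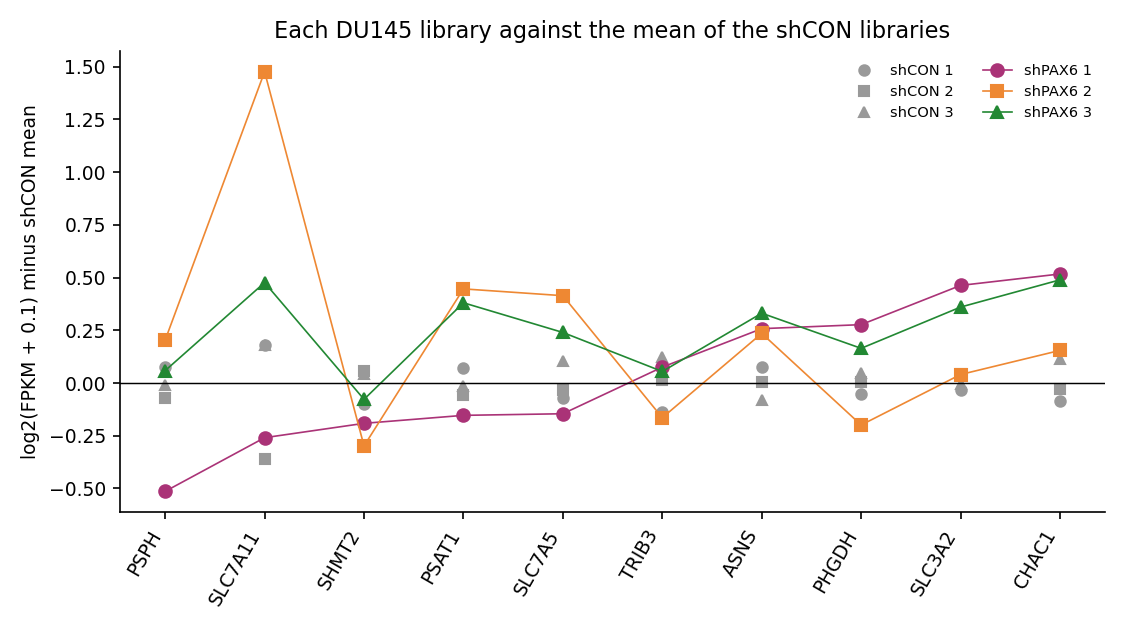
Deviation of each DU145 library from the shCON mean, in log2(FPKM + 0.1), with the genes ordered by shPAX6 library 1. Libraries 1 and 2 of shPAX6 cross between PSPH, at -0.51 in library 1, and CHAC1, at 0.52, while library 3 stays between or above them.

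The DU145 libraries also differed in how levels ran with the GC content of the transcripts, and the fold changes over 12009 genes had a Spearman correlation of -0.36 with GC, across genes that are not independent replicates. The members run from 35.4% GC in SLC7A11 to 61.5% in TRIB3. After a loess correction for GC within each library, still none of the 10 passed the threshold in limma, where 2 had an unadjusted p under 0.05, beside 17.7% of all features in that fit. CHAC1 went to a log2 fold change of 0.58 (adjusted p = 0.064), SLC3A2 to 0.38 (0.14), SLC7A5 to 0.36 (0.50) and TRIB3 to 0.18 (0.46), whereas ASNS went to 0.16 (0.53). The genes higher without overlap were then CHAC1 and SLC3A2 and no longer ASNS, where 7.83% of all features were. For shPAX6 libraries 1, 2 and 3 relative to shCON, the order was kept by SLC7A5 (-0.21, 0.86 and 0.43), PSPH (-0.48, 0.21 and 0.06), SLC7A11 (-0.25, 1.02 and 0.27), PHGDH (0.29, -0.06 and 0.21) and SLC3A2 (0.47, 0.24 and 0.43). It was not kept by CHAC1 (0.45, 0.60 and 0.68) and TRIB3 (0.003, 0.29 and 0.25), for which library 1 turned from the highest to the lowest, nor by PSAT1 (-0.12, 0.17 and 0.26), for which library 3 became the highest. Nor did ASNS (0.29, -0.04 and 0.22) keep it, as library 1 became the highest, or SHMT2 (-0.21, 0.02 and 0.05), as library 1 became the lowest.

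The next question was whether the genes differed between LNCaP-ENZ and parental cells. With 1 library per group no test was made. Ratios are of CPM, the counts scaled by the library total, on the scale log2(CPM + 0.1). The exact 95% Clopper-Pearson intervals are from the counts and library totals, without the added 0.1, and cover counting error only. Over the 14767 genes with a mean of at least 1 CPM the median log2 ratio was -0.15, and that of the 10 genes was 0.03. Summed over the 10 genes, the share of all counts was 0.230% in both libraries. On the TPM scale, which is per length, the sum was 792 in parental and 735 in LNCaP-ENZ cells. Of the 10, 1 passed 2-fold, as lower, where 1.84% of all genes were at least 2-fold higher and 9.57% at least 2-fold lower. The counting interval lay above 0 for 4 (21.6% of all genes), below 0 for 2 (42.3%) and held 0 for the other 4.

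SLC7A11 was the gene past 2-fold. It had 1006 counts in parental and 390 in LNCaP-ENZ cells, or 5.32 and 2.22 TPM, a log2 ratio of -1.17 (interval -1.35 to -1.01). Its partner SLC3A2 was at 4229 and 4072 counts (0.14, interval 0.07 to 0.20), and the other light chain, SLC7A5, at 13975 and 15118 counts (0.30, interval 0.27 to 0.34). The TPM ratio of SLC7A5 to SLC7A11 was therefore 29.4 in parental and 82.1 in LNCaP-ENZ cells.

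The transcript of SLC7A11 is also the longest of the 10, with 9648 exonic bases in the table, and the lowest in GC. Over 11968 genes the LNCaP log2 ratio had a Spearman correlation of 0.39 with GC and -0.27 with length. After a correction for GC and length across genes (this alternative was chosen with the values known), the log2 ratio of SLC7A11 was -0.39 and none of the 10 passed 2-fold, while 912 genes did, and SLC3A2 turned to -0.08.

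Of the serine pathway, scaled by library totals, SHMT2 was lower in the LNCaP-ENZ library, while the counting intervals of PHGDH and PSAT1 held 0. SHMT2 had 15811 and 10458 counts (772 and 583 CPM), a log2 ratio of -0.41 (interval -0.44 to -0.37). PHGDH had 5369 and 4836 counts, which is 262 and 269 CPM, a log2 ratio of 0.04 (interval -0.02 to 0.10). PSAT1, at 2476 and 2170 counts, was 121 CPM in both libraries. Other scalings moved these values past their counting intervals. With TMM factors the log2 ratio was 0.19 for PHGDH and 0.15 for PSAT1, and on the deposited TPM scale -0.05 and -0.09. After the GC and length correction PHGDH was at -0.22, PSAT1 at 0.05 and SHMT2 at -0.63.

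PSPH has a pseudogene, PSPHP1, in the table, and how the counting divided reads between them was not tested. PSPH had 374 and 426 counts, a log2 ratio of 0.38 (interval 0.17 to 0.58). PSPHP1 had 377 and 270 counts, and with both added together the log2 ratio was 0.08. The other copies of members in the table, of ASNS, PSAT1 and SLC7A5, had at most 1.99% of the counts of their parent gene.

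In the amino acid response group, scaled by library totals, ASNS was higher and the counting intervals of the others held 0. ASNS had 2308 and 2451 counts (113 and 137 CPM, log2 ratio 0.28, interval 0.19 to 0.36). CHAC1 had 157 and 129 counts (-0.09, interval -0.44 to 0.25) and TRIB3 1283 and 1149 (0.03, interval -0.09 to 0.15). Signs close to 0 depended on the scaling: 6 of the 10 genes were above 0 by library totals, 8 by TMM factors and 4 on the deposited TPM scale. After the GC and length correction, 4 were above 0 and 6 below. SHMT2 and SLC7A11 were below 0, and ASNS, SLC7A5 and PSPH above 0, under each of these settings.

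**Figure D4:**
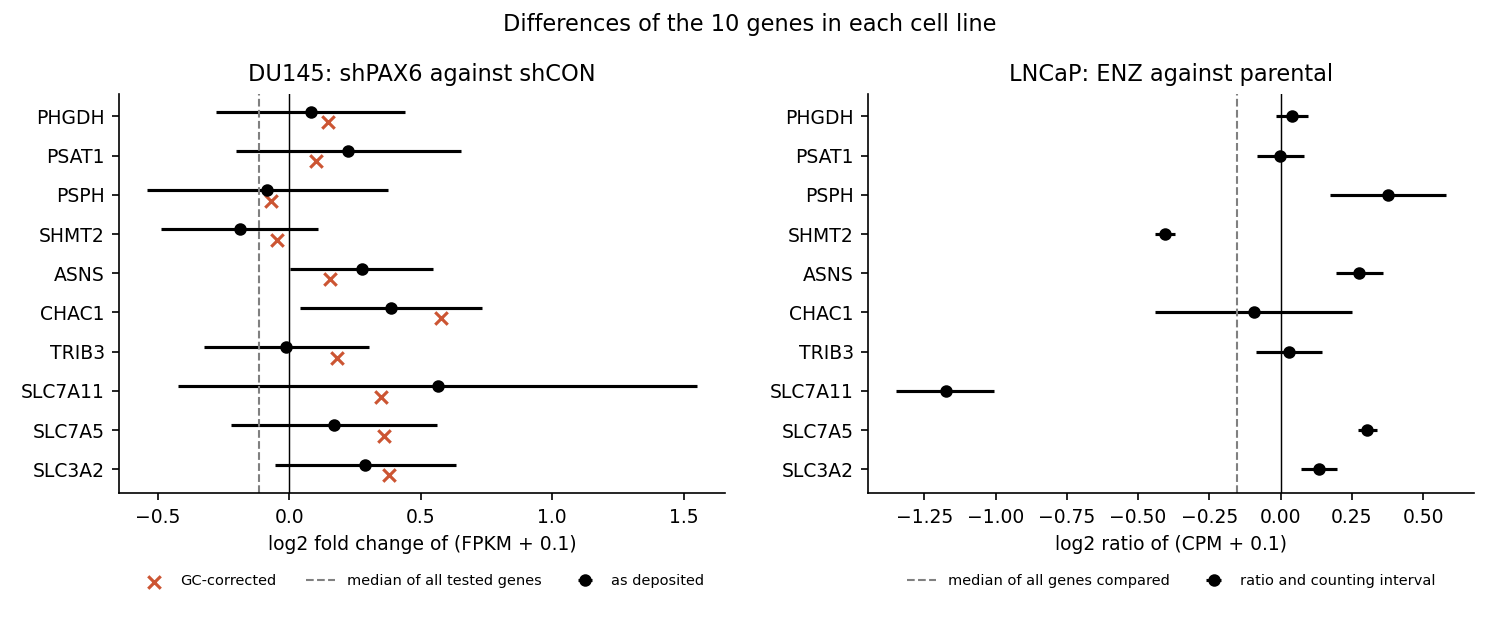
Differences of the 10 genes in DU145 (left, limma log2 fold change with 95% interval, crosses after GC correction) and LNCaP (right, log2 ratio with exact 95% counting interval), with dashed lines at the median of all genes, -0.12 and -0.15. In DU145 only the intervals of ASNS and CHAC1 leave out 0, before adjustment for the number of genes, and in LNCaP SLC7A11 lies farthest from 0.

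ATF4 itself, the factor that joins these genes, was 289, 295 and 332 FPKM in shCON and 362, 354 and 421 FPKM in shPAX6. All shPAX6 libraries lay above all shCON libraries, a pattern that 6.70% of all features showed. The log2 fold change was 0.31 ± 0.14 (adjusted p = 0.29 in limma). In LNCaP it had 6144 and 5581 counts (log2 ratio 0.05, interval -0.001 to 0.10). ATF4 is regulated mainly through its translation, which RNA levels do not show.

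Around the 10 genes, 169 genes of 8 pathway lists were read from the same fits. In DU145, 144 of them were tested and 1 passed the threshold, as higher (limma), while 33 had an unadjusted p under 0.05 (22.9%). Over all features these shares were 1.20% and 18.3%. The gene that passed was NQO1, a quinone reductase and target of the oxidative stress factor NRF2, at 493, 448 and 405 FPKM in shCON and 952, 786 and 863 FPKM in shPAX6 (log2 fold change 0.95 ± 0.15, adjusted p = 0.040, and 0.058 after the GC correction). The 1 pathway gene that passed in the GC-corrected fit was another, PPP1R15A, the phosphatase subunit that reverses eIF2alpha phosphorylation, named here after its values were seen (log2 fold change 0.73, adjusted p = 0.031 in limma, against 0.58 and 0.087 without correction). For NQO1, all shPAX6 libraries lay far above all shCON libraries. In LNCaP, NQO1 was also higher, with 804 counts in parental and 1834 in LNCaP-ENZ cells (log2 ratio 1.38). The list of glutathione and NRF2 genes, of which 18 were tested, had a median of 0.11 in DU145, with 12 above and 6 below 0. Of the 18, 4 were higher and 4 lower without overlap, beside 6.70% and 20.0% of all features. The lowest was KEAP1, which holds NRF2 back. It was 16.9, 17.5 and 20.5 FPKM in shCON and 3.99, 13.0 and 10.7 FPKM in shPAX6 (log2 fold change -1.13 ± 0.41, adjusted p = 0.21 in limma). In LNCaP, KEAP1 was higher in LNCaP-ENZ cells (log2 ratio 0.55). An NRF2 response was not tested.

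The 23 tested genes of other ATF4 responses had a median log2 fold change of 0.13 in DU145, with 13 above and 10 below 0 and none past the threshold in limma, and 11 at an unadjusted p under 0.05 (47.8%, beside 18.3% of all features). No overlap between groups was found for 7 as higher (30.4%, beside 6.70%) and 6 as lower (26.1%, beside 20.0%). This list was chosen with earlier results of these data known, so these shares describe it and are no test of an ATF4 response. The extremes were SESN3, a stress protein of the sestrin family, at a mean of 1.116 ± 0.13 and 2.75 ± 1.2 FPKM (SD, n = 3; log2 fold change 1.15, adjusted p = 0.13), and NUPR1, a stress-induced nuclear protein, at 2.03 ± 1.2 and 0.221 ± 0.18 FPKM (log2 fold change -2.65, adjusted p = 0.092). In LNCaP this list held the widest differences. TXNIP, a thioredoxin-binding protein, had 1219 and 9387 counts (log2 ratio 3.13), and SESN3 had 14756 and 2018 (-2.68).

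The serine and one-carbon list had a median of -0.09 over 21 genes in DU145. Its highest gene was GGH, which trims the glutamate tail of folates, at 40.0 ± 4.2 and 55.9 ± 2.2 FPKM (log2 fold change 0.49, adjusted p = 0.11). The serine-using enzymes had a median of -0.21 over 9 genes, with serine racemase, SRR, at 4.72 ± 0.25 and 3.23 ± 0.11 FPKM as the lowest (-0.53, adjusted p = 0.17). Neither list had a gene past the threshold in limma. An unadjusted p under 0.05 was found for 3 of 21 and 1 of 9 genes, beside 18.3% of all features.

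Amino acid transporters outside the 10 had a median of -0.16 over 18 genes. Of these, 4 were lower without overlap, or 22.2% beside 20.0% of all features, and 1 was higher, or 5.56% beside 6.70%. The lowest was SLC43A2, a carrier of neutral amino acids, at 3.83 ± 0.33 and 2.00 ± 0.11 FPKM (log2 fold change -0.90, adjusted p = 0.070). The list of asparagine, proline, aspartate and glutamine metabolism had a median of -0.13 over 18 genes, from ASS1, argininosuccinate synthase, at 18.6 ± 1.4 and 10.7 ± 1.9 FPKM (-0.80, adjusted p = 0.074) to BCAT1, a branched-chain aminotransferase, at 11.6 ± 1.5 and 18.1 ± 5.9 FPKM (0.59, adjusted p = 0.25). For the 20 cytosolic aminoacyl-tRNA synthetases the median was -0.07, and the 17 eIF2alpha kinases and regulators had a median of -0.05. None of these genes passed the threshold in limma. An unadjusted p under 0.05 was found for 4 of 18, 3 of 18, 3 of 20 and 2 of 17, in this order of lists. Over all features the share was 18.3%.

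In LNCaP, 4 of the 153 pathway genes compared were at least 2-fold higher and 8 at least 2-fold lower in LNCaP-ENZ cells, which is 2.61% and 5.23%, beside 1.84% and 9.57% of all genes. Beside those named above, the lowest of their lists were ASRGL1, an asparaginase (379 and 101 counts, log2 ratio -1.70), SLC3A1, the heavy chain of another cystine carrier (101 and 33 counts, -1.38), SPTLC3, a subunit of serine palmitoyltransferase (215 and 72 counts, -1.37), and EIF2S2, the beta subunit of eIF2 (545 and 204 counts, -1.22). TXNRD1, thioredoxin reductase, was at -0.82, the tRNA synthetase EPRS at -0.98, and DLD, the shared subunit of the glycine cleavage system, at -0.99. The highest of their own lists included PYCRL, of proline synthesis (1396 and 2052 counts, 0.74), AMT, also of glycine cleavage (57 and 88 counts, 0.79), and the tRNA synthetase WARS (2403 and 3311 counts, 0.65). The other 2 genes past 2-fold as higher, LMO4, a LIM domain protein (408 and 2629 counts, 2.87), and ATF5, a relative of ATF4 (238 and 479 counts, 1.19), were named after their values were seen. Past 2-fold as lower were also KLHL24 (1800 and 474 counts, -1.73) and ATF3 (806 and 346 counts, -1.03), of the other ATF4 responses. So was the amino acid transporter SLC36A4 (287 and 97 counts, -1.36). They too were named after their values were seen. The lists had medians between -0.27 and 0.13, beside -0.15 over all genes.

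**Figure D5:**
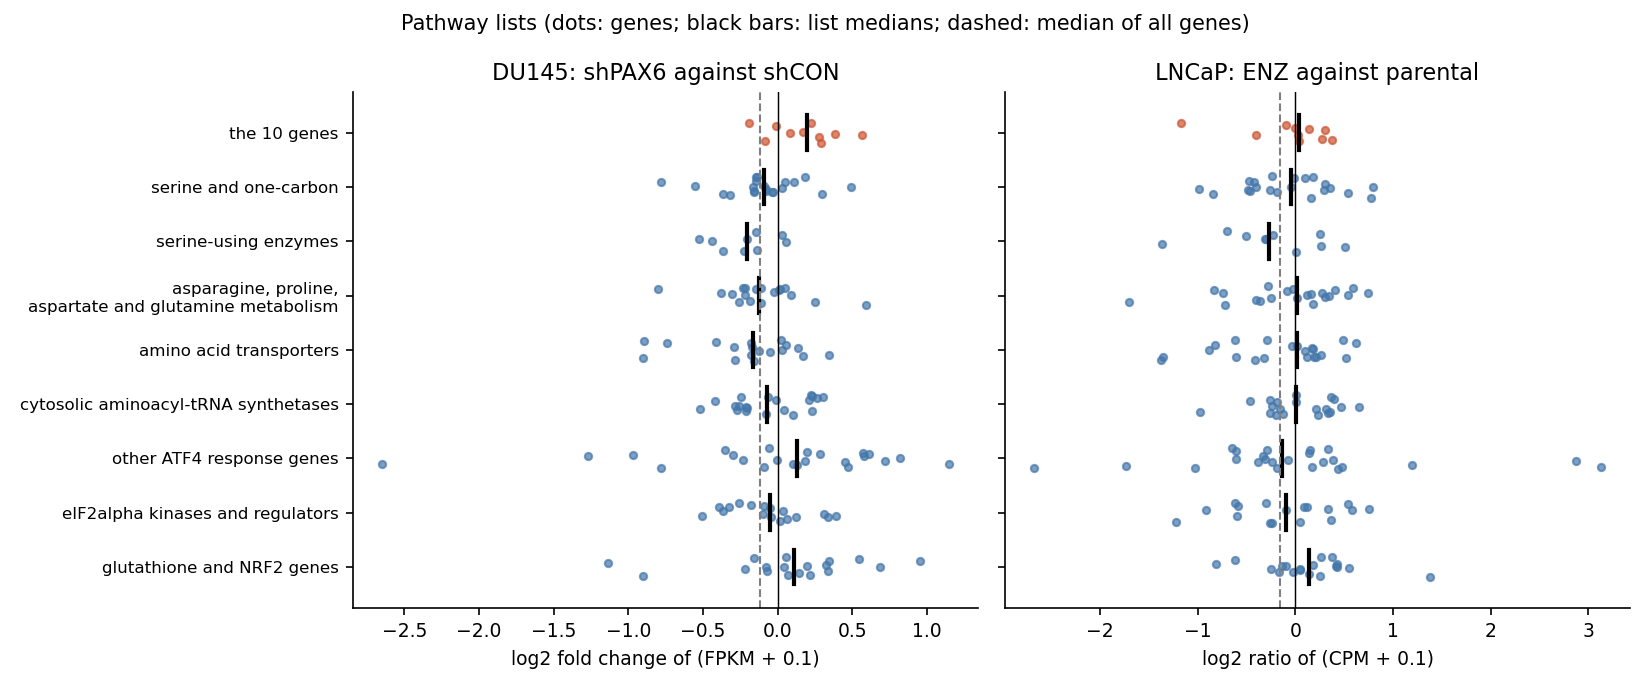
Differences of the 10 genes and of the 8 pathway lists in DU145 (left, log2 fold change) and LNCaP (right, log2 ratio), where each dot is a gene, black bars are list medians and dashed lines the medians of all genes. The 10 genes have a median of 0.20 in DU145, beside 0.13 for the other ATF4 responses, and SLC7A11 lies apart in LNCaP.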

How the data were processed

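The authors reported oligo-dT priming, alignment to GRCh37 with HISAT2 and quantification with StringTie; the labels describe another kit and read length. The deposited LNCaP table holds read counts and TPM. The deposited DU145 values were treated as FPKM scaled by the authors, although the table names no unit, and low values share no whole-read step. DU145 was tested with limma 3.58.1 (trend, two-sided, Benjamini-Hochberg) after taking log2(FPKM + 0.1), leaving out means under 0.5 FPKM; LNCaP ratios used CPM + 0.1 and genes at a mean of 1 CPM or more. TMM factors came from edgeR 4.0.16. Fits were tested on simulated data. Members and lists were chosen with earlier results of these data known. Named genes were the members and their copies, PAX6, ATF4, KLK3 and, per list, genes past the threshold and the highest and lowest; PTDSS1, SLC1A3, FARSB, QARS, EIF2S1, GCN1, SLC7A7 and EIF2B3 are left undescribed, and some named items are not reported here. Scaling, filter, pseudocount, weights and GC were varied, and each library was left out.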

Additional observations from a re-analysis of the deposited data

How the results depend on the processing

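The count of 163 DU145 features past the threshold was 108 without a filter, 100 after median centring, 4569 with array weights, 0 with the replicate block (where 1568 had an unadjusted p under 0.05) and 3 with the replicate block and GC correction, and from 0 to 924 with 1 library left out (0 without shCON library 1 or 3, 5 without shCON library 2, 924, 899 and 10 without shPAX6 library 1, 2 or 3). Deviations of same-numbered libraries correlated at -0.17, -0.37 and 0.05, and those of differently numbered ones at -0.19 to 0.37. The GC trends of single libraries enter these correlations, so they cannot settle whether the numbers pair the libraries, which the labels do not say. Of the members, 5 passed with array weights and 0 under every other alternative, the replicate block included, and with any library left out. Of the pathway genes, 1 passed, against 0 without a filter, 3 without the trend, 55 with array weights, 0 with the replicate block, 0 with the block and GC correction, and 0 to 15 with 1 library left out. PSPH turned to 0.092 after median centring and 0.053 with array weights, and ranged from -0.23 to 0.13 with 1 library left out. TRIB3 turned to 0.016 with quantile normalization, 0.16 after median centring, 0.050 with array weights and 0.18 after GC correction with or without the block, and ranged from -0.080 to 0.065 with 1 library left out. PHGDH ranged from -0.017 to 0.22 with 1 library left out. In LNCaP, 1684 genes past 2-fold became 1054 with a pseudocount of 1, 6120 without a filter, 874 at a mean of at least 5 CPM and 912 after the GC and length correction. The 1 member past 2-fold stayed so under the other alternatives and was 0 after that correction, which was added after the data were seen, with SLC3A2 at -0.077. Centring moved the split of DU145 calls from 24 higher and 139 lower to 28 and 72, quantile normalization to 74 and 162, and GC correction to 45 and 118. The causes of these changes were not tested.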
